A study of Mus musculus with 6 samples.

Results

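Fibroblasts of the heart keep the matrix between muscle cells, and on injury they take up an activated, matrix-producing state. The 10 genes described here mark these states, and they were chosen by name from 22298 genes in the deposited table. The 5 genes of resting fibroblasts were Gsn, Pdgfra, Tcf21, Dpt and Pi16, and the 5 of activated fibroblasts were Cd248, Meox1, Fap, Cthrc1 and Ddah1. All 10 were found, each as 1 row, and all 10 passed the filter on low counts. RNA of hearts from 18-month-old wild-type (WT) female mice was sequenced after TAC surgery (3 libraries) or sham surgery (3 libraries). TAC is the usual abbreviation for transverse aortic constriction, which loads the left ventricle with pressure. No source used here gives the strain, the time after surgery or the part of the heart. The titles number the hearts within each group. The labels do not state that each library came from its own animal, so p-values measure the spread between these libraries.

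As background, a resting cardiac fibroblast in the mouse carries the receptor PDGFRα, depends on the transcription factor TCF21 during its development, and makes matrix proteins such as dermatopontin. Under pressure load or after infarction, some fibroblasts turn to a state marked in mice by periostin, CTHRC1 and the protease FAP, and the homeobox factor MEOX1 is known in mice as a regulator of that switch. Most of these genes are also read in other cells. Gelsolin is made by many cell types, CD248 by pericytes, and DDAH1 by endothelial and other cells.

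Depth was 22172718 to 25799573 estimated counts per TAC library and 19747265 to 27549838 per sham library. TAC replicate 1 was nearer to the sham libraries than TAC replicates 2 and 3 were. CPM is the count scaled to a common library size, here with TMM factors. Across genes, log2 CPM of TAC replicate 1 correlated at 0.971 to 0.975 with the sham libraries. For TAC replicates 2 and 3 these values were 0.936 to 0.941 and 0.933 to 0.939. Within TAC, replicate 1 correlated at 0.957 to 0.961 with replicates 2 and 3, which correlated at 0.96 with each other. Calls and directions of the 10 genes, and each gene list's count of calls, are therefore also given without TAC replicate 1 where they differ. The tissue label was checked with cardiomyocyte markers, whose 8 genes summed to 31858 to 43271 CPM in TAC and 43006 to 44065 CPM in sham. Pdgfra, Tcf21 and Dpt were counted in all 6 libraries.

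The starts of Gsn, Tcf21, Dpt and Pdgfra are shown because Gsn and Tcf21 were the members with lower values in every TAC library than in any sham library, Dpt shares a motif with Gsn, and Pdgfra had nearly equal group means. Each line gives the 250 bases before a RefSeq transcript start (GRCm38.p6), 5′ to 3′ on the gene's strand. RefSeq lists 3 starts for Gsn, and the deposited row counts them as 1 gene. The windows lie at chr2:35256109-35256358, chr2:35266494-35266743 and chr2:35282130-35282379 (plus strand), chr10:22820144-22820393 for Tcf21 (minus strand), chr1:164796413-164796662 for Dpt (plus strand) and chr5:75152001-75152250 for Pdgfra (plus strand). Capitals mark the E-box CAGCTG, a site class read by factors of the TCF21 type.
Gsn, first start: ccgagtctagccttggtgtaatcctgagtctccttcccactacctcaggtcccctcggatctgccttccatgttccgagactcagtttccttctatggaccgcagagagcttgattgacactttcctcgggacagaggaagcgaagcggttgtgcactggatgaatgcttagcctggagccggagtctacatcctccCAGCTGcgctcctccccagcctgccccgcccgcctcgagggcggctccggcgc
Gsn, second start: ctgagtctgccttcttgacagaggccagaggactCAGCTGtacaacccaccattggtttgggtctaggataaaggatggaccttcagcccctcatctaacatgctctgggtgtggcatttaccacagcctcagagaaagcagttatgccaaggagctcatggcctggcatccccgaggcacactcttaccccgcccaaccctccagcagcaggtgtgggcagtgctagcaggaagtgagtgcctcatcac
Gsn, last start: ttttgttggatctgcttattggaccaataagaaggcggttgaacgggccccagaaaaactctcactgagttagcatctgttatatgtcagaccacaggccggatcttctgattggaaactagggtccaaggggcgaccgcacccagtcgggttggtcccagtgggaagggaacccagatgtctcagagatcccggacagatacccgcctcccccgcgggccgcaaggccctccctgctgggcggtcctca
Tcf21: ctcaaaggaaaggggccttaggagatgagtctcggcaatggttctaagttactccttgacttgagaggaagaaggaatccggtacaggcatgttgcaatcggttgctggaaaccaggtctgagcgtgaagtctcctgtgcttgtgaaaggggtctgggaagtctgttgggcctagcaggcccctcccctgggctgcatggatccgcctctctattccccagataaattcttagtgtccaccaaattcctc
Dpt: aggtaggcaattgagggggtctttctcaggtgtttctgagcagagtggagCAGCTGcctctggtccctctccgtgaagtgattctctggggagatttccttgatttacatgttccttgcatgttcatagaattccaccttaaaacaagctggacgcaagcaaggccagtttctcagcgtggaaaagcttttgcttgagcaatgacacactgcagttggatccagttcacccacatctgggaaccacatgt
Pdgfra: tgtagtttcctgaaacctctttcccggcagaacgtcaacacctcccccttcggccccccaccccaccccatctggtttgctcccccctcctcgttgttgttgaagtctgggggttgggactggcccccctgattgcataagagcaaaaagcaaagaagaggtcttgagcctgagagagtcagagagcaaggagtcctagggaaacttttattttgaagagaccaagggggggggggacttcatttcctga

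CAGCTG, which reads the same on both strands, was present before the first and second Gsn starts and before the Dpt start, and 13.0% of 32851 promoter windows of the same length hold it. Its positions were 53 to 48 and 216 to 211 bases before the first and second Gsn starts and 200 to 195 bases before the Dpt start. The other motifs searched on both strands were TGANTCA for AP-1, GGAATG for the TEAD factors, TATAAA for the core promoter, TAATTA for homeodomain factors and the CArG box of serum response factor. None of these letters occurred in the 8 windows of the 6 members that the table holds, which besides those shown were Pi16 and Ddah1. Their shares among all windows were 6.75% for TGANTCA, 12.6% for GGAATG, 12.4% for TATAAA, 4.84% for TAATTA and 1.47% for the CArG box. A match is a run of letters and not a measured binding site. The windows were between 48.8% G and C (Dpt) and 64.0% (Ddah1), against a median of 52.4% over all windows. The table used here gave no start for Cd248, Meox1, Fap or Cthrc1.

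None of the 10 genes passed the test over all genes (edgeR quasi-likelihood test, Benjamini-Hochberg adjusted p under 0.05), where 1.66% of 13708 tested genes passed, 1.12% with higher and 0.54% with lower TAC values. At an unadjusted p under 0.05 stood 3 of the 10, Gsn, Tcf21 and Cthrc1, against 25.6% of all tested genes. DESeq2's Wald test called 2 of them, Gsn lower and Cthrc1 higher, and 11.3% of the 14639 genes for which it gave an adjusted p. Without TAC replicate 1 edgeR called the same 2 genes, where 23.2% of all tested genes passed, and without TAC replicate 3 it called Gsn alone, where 0.964% passed. In limma-voom, where 1.25% of all tested genes passed, none of the 10 did. The same 3 genes were also the only members without overlap between the groups, 2 with lower and 1 with higher TAC values. Among all tested genes 31.5% did not overlap, 13.1% with lower and 18.4% with higher TAC values, so neither count is far from the background. In bulk RNA, fewer cells of a type and less RNA per cell cannot be told apart.

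**Figure D1:**
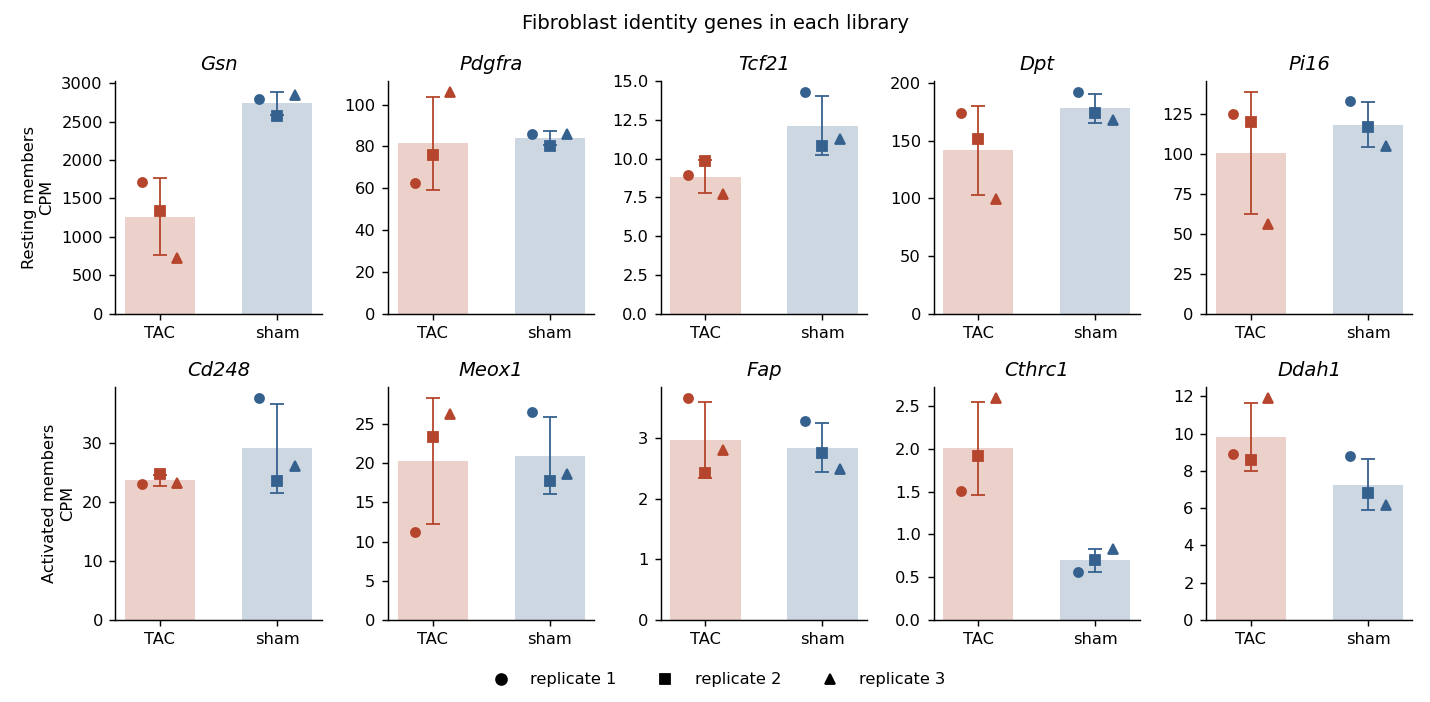
CPM of the 10 genes in each library, resting genes in the upper row and activated genes in the lower row, with TAC left of sham. Points are libraries, bars are means and error bars are SD (n = 3 each). Gsn and Tcf21 are lower and Cthrc1 is higher in all 3 TAC libraries than in any sham library.

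Gsn encodes gelsolin, which severs and caps actin filaments, and was the most abundant of the 10. It had 1719, 1339 and 725 CPM in TAC replicates 1, 2 and 3, against 2789.9, 2573 and 2852 CPM in sham replicates 1, 2 and 3. All 3 TAC libraries lay below all sham libraries, and TAC replicate 3 was the lowest. The means were 1261 ± 502 CPM in TAC and 2739 ± 146 CPM in sham (SD, n = 3 each). Its log2 fold change was -1.12 (SE 0.29, approximate 95% interval -1.77 to -0.46, edgeR adjusted p = 0.0733). Without TAC replicate 1 the value was -1.42 (edgeR adjusted p = 0.0154), while leaving out TAC replicate 3 gave -0.86 (edgeR adjusted p = 0.0437), so the gene passed in both of those fits. DESeq2 gave an adjusted p of 0.000916 on all 6 libraries. Gsn lies on chromosome 2, 35256380 to 35307892 in GRCm38 (ENSMUSG00000026879), and no exon of another annotated gene overlaps its exons.

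Tcf21 encodes a basic helix-loop-helix factor that fibroblast precursors of the epicardium need. It had 8.96, 9.85 and 7.70 CPM in TAC replicates 1, 2 and 3, and 14.3, 10.8 and 11.3 CPM in sham replicates 1, 2 and 3. The TAC libraries again lay below all sham libraries, but the gap was narrow, with TAC replicate 2 and sham replicate 2 next to each other. The log2 fold change was -0.46 (SE 0.17, interval -0.85 to -0.06, edgeR adjusted p = 0.146). It ranged from -0.57 to -0.34 when each library was left out in turn, and passed in none of these fits.

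Dpt encodes dermatopontin, an extracellular matrix protein that binds decorin. It stood at 174, 151 and 99.4 CPM in TAC replicates 1, 2 and 3, against 192, 174 and 168 CPM in sham. TAC replicate 1 fell within the sham range and TAC replicate 3 well below it. Dpt had a log2 fold change of -0.33 (SE 0.20, interval -0.79 to 0.13, edgeR adjusted p = 0.327), which was -0.52 without TAC replicate 1 and -0.15 without TAC replicate 3 and passed in neither fit. Pi16 encodes peptidase inhibitor 16, a marker of adventitial fibroblasts in the mouse. It had 125, 120.2 and 56.4 CPM in TAC replicates 1, 2 and 3 and 133, 117 and 105 CPM in sham. Here 2 of the 3 TAC libraries were inside the sham range, and the low mean of TAC came from TAC replicate 3. Its log2 fold change was -0.23 (SE 0.28, interval -0.87 to 0.40, edgeR adjusted p = 0.619) and turned to 0.04 without TAC replicate 3, while it was -0.43 without TAC replicate 1 and -0.41 without TAC replicate 2. In that library adipocyte markers were also low, with 6 genes summing to 13.8 CPM, against 193 and 211 CPM in TAC replicates 1 and 2 and 87.2 to 452 CPM in sham. Their part in the result was not tested.

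Pdgfra encodes the platelet-derived growth factor receptor alpha, the common surface marker of fibroblasts. It had 62.3, 76.1 and 106 CPM in TAC replicates 1, 2 and 3, against 86.1, 80.1 and 85.8 CPM in sham. The TAC libraries lay on both sides of the sham libraries, 2 below and 1 above, and TAC replicate 3, the lowest for the other 4 resting genes, was the highest for Pdgfra. The fit gave a log2 fold change of -0.05 (SE 0.19, interval -0.47 to 0.38, edgeR adjusted p = 0.898), and leaving out TAC replicate 1 turned it to 0.10, while leaving out TAC replicate 3 gave -0.29. Exons of Pdgfra share 456 bases with the antisense gene Gm42802, and exons of Pi16 share 222 bases with the antisense gene AC162182.1. The library protocol does not state that strand was kept, so reads of these partners may be part of both values.

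**Figure D2:**
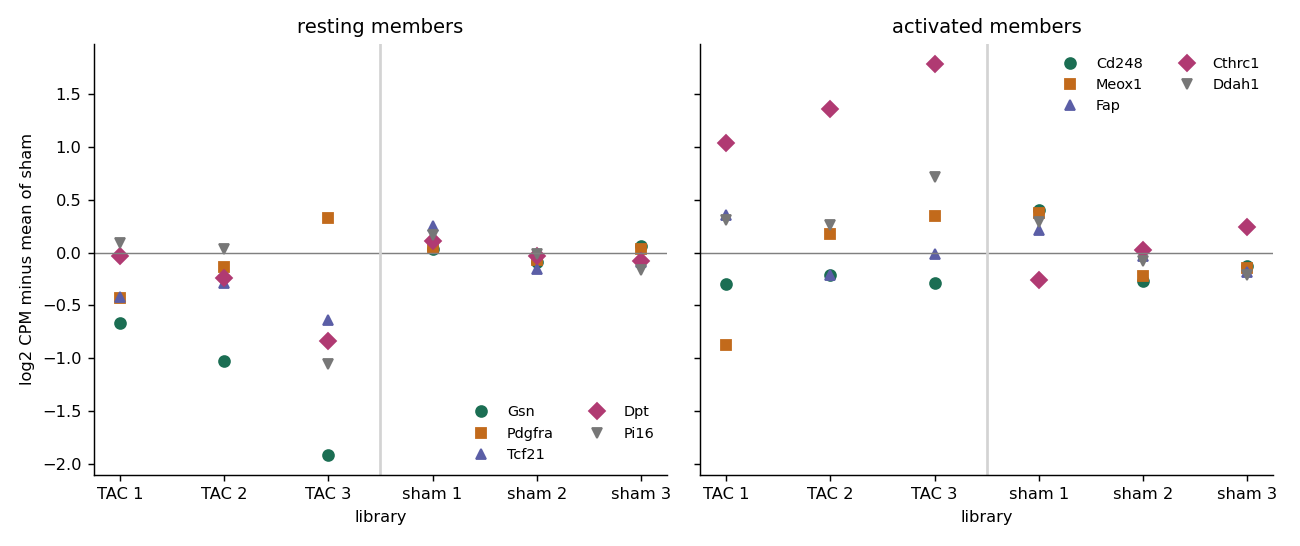
Difference of each gene's log2 CPM (prior count of 2) from its mean over the 3 sham libraries, for the resting genes on the left and the activated genes on the right, by library. In TAC replicate 3 Gsn stands at -1.92, Pi16 at -1.06 and Dpt at -0.84, while Pdgfra stands at 0.33 and Cthrc1 at 1.79.

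Cthrc1, a secreted protein with collagen-like repeats, was the activated gene that differed most, at a low level. It had 37, 44 and 61 counts in TAC replicates 1, 2 and 3, and 11, 19 and 18 counts in sham replicates 1, 2 and 3. In CPM these were 1.51, 1.91 and 2.59 in TAC and 0.564, 0.699 and 0.831 in sham. Every TAC library was above every sham library. Exact Poisson intervals at 95%, which cover counting error only and are not scaled for depth, overlapped for the libraries nearest in counts. They were 26.1 to 51.0 counts in TAC replicate 1 and 11.4 to 29.7 counts in sham replicate 2. Sham replicate 3, the nearest to TAC replicate 1 in CPM, had an interval of 10.7 to 28.4 counts. Means were 2 ± 0.55 CPM in TAC and 0.698 ± 0.133 CPM in sham (SD, n = 3 each), 2.85-fold higher in TAC by the fit. On the log2 scale this was 1.51 (SE 0.35, interval 0.72 to 2.30, edgeR adjusted p = 0.063). It passed without TAC replicate 1 (1.66, edgeR adjusted p = 0.0191) and with DESeq2 (adjusted p = 0.0176).

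Ddah1 encodes the enzyme that breaks down asymmetric dimethylarginine (ADMA), an inhibitor of nitric oxide synthases. It had 8.92, 8.60 and 11.9 CPM in TAC replicates 1, 2 and 3, against 8.78, 6.80 and 6.19 CPM in sham. In this gene 2 TAC libraries exceeded all sham libraries, and TAC replicate 2 lay just under sham replicate 1. Its log2 fold change was 0.43 (SE 0.20, interval -0.03 to 0.90, edgeR adjusted p = 0.219). It was 0.26 without TAC replicate 3 and 0.57 without sham replicate 1, and passed in neither fit.

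Meox1 split the TAC libraries. It had 11.2, 23.4 and 26.3 CPM in TAC replicates 1, 2 and 3, against 26.6, 17.7 and 18.6 CPM in sham. TAC replicate 1 held less than any sham library and TAC replicates 2 and 3 lay within the sham range. The log2 fold change of -0.05 (SE 0.31, interval -0.76 to 0.66, edgeR adjusted p = 0.938) turned to 0.23 without TAC replicate 1 and to 0.14 without sham replicate 1, without passing in either fit. The interval of Meox1 allows a change of either sign.

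Fap, a serine protease on the surface of activated fibroblasts, and Cd248, the membrane glycoprotein endosialin, did not separate the groups. Fap had 3.66, 2.43 and 2.81 CPM in TAC replicates 1, 2 and 3 and 3.28, 2.76 and 2.49 CPM in sham, and its log2 fold change was 0.06 (SE 0.25, interval -0.52 to 0.65, edgeR adjusted p = 0.896). Its TAC values reached both above and below the sham range, and it was counted at 54 to 90 per library. Without TAC replicate 1 its value was -0.13. Cd248 was nearly equal in the TAC libraries, at 23.0, 24.6 and 23.2 CPM, against 37.5, 23.5 and 26 CPM in sham. Sham replicate 1 was the highest for Cd248, Meox1, Fap and Ddah1 among the sham libraries and the lowest for Cthrc1. The log2 fold change of Cd248 was -0.29 (SE 0.18, interval -0.71 to 0.12, edgeR adjusted p = 0.336), and it was -0.09 without sham replicate 1 and -0.45 without sham replicate 2.

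**Figure D3:**
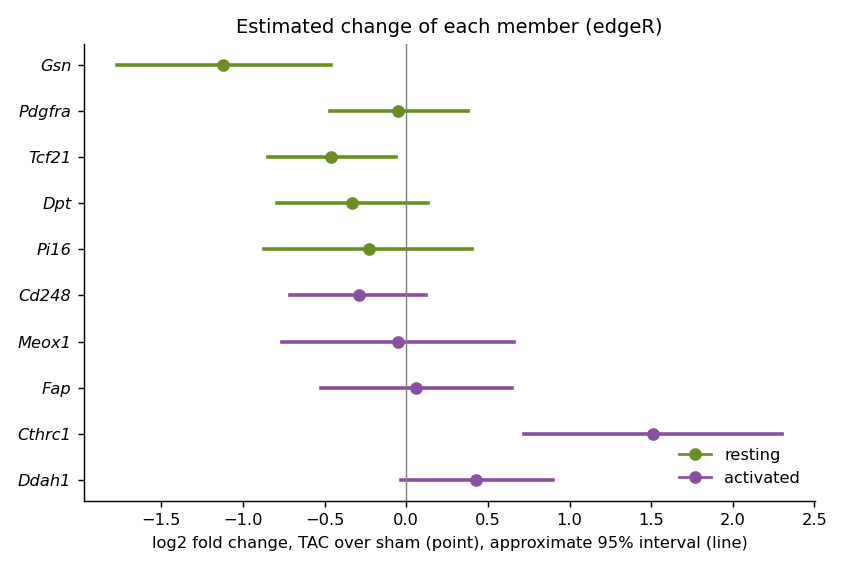
Log2 fold change of TAC over sham for each gene (points) with its approximate 95% interval (lines) from the edgeR fit. The intervals of Gsn, Tcf21 and Cthrc1 do not reach 0, and none of the 10 genes passed after adjustment over all genes.

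The 5 resting genes all had a negative log2 fold change, from -1.12 to -0.05 with a median of -0.33, and the 5 activated genes ranged from -0.29 to 1.51 with a median of 0.06. The median over all tested genes was 0.03. Medians of the smooth muscle, epicardial, Schwann cell and adipocyte markers described below were -0.41, -0.44, -0.34 and -0.76. Pericyte, endothelial and cardiomyocyte markers had -0.22, -0.21 and -0.06, so a negative median was not particular to the resting genes. Of the activated genes, 3 were positive and 2 negative. The mean log2 CPM of the resting genes was 6.86, 6.82 and 6.33 in TAC replicates 1, 2 and 3, against 7.27, 7.08 and 7.10 in sham. That of the activated genes was 2.75, 2.92 and 3.16 in TAC, against 2.85, 2.53 and 2.56 in sham. Activated minus resting was -4.11, -3.90 and -3.17 log2 units in TAC and -4.42, -4.55 and -4.54 in sham, so the balance lay nearer to the activated genes in each TAC library. The mean difference between the groups was 0.78 log2 units, or 0.50 without TAC replicate 3, a description with no test because the genes were chosen with results known. Over the 8 genes other than Gsn and Cthrc1 the difference was 0.33, and the groups overlapped. The values were then -2.61, -2.52 and -1.94 in TAC and -2.51, -2.77 and -2.77 in sham.

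The genes also differed in spread. The coefficient of variation was larger in TAC for 7 of the 10, and the share over all tested genes was not computed. Across all tested genes the TAC libraries were also less alike, correlating at 0.957 to 0.961, against 0.979 to 0.988 among sham libraries. For Gsn the coefficient was 39.8% in TAC and 5.33% in sham, and for Pdgfra 27.4% in TAC and 3.99% in sham. Cd248 went the other way, with 3.53% in TAC and 25.8% in sham. TAC replicate 3 was the lowest TAC library for 4 of the 5 resting genes and the highest for 3 of the 5 activated genes. TAC replicate 1 was the lowest TAC library for 3 activated genes, Cd248, Meox1 and Cthrc1.

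Levels between genes were compared as FPKM, which is scaled by gene length. In TAC the order was Gsn (469 ± 165 FPKM), Dpt (81.2 ± 18.0), Pi16 (30.2 ± 10.4), Pdgfra (13.3 ± 4.22), Meox1 (9.21 ± 4), Cd248 (9.06 ± 0.556), Tcf21 (6.92 ± 0.669), Ddah1 (3.16 ± 0.733), Cthrc1 (1.76 ± 0.618) and Fap (1.19 ± 0.210; SD, n = 3 each). In sham the top 4 were the same, with Gsn at 1034 ± 73.9 FPKM, Dpt at 103 ± 5.61, Pi16 at 37.4 ± 4.98 and Pdgfra at 13.4 ± 0.620. Below them in sham stood Cd248 at 11.1, Tcf21 at 9.55, Meox1 at 9.40, Ddah1 at 2.44, Fap at 1.12 and Cthrc1 at 0.623 FPKM. Neighbours whose libraries overlapped were Pdgfra with Meox1, Meox1 with Cd248 and Cthrc1 with Fap in TAC, and in sham Pdgfra with Cd248, Cd248 with Tcf21 and Tcf21 with Meox1. By their means, Fap and Cthrc1 stood in opposite order at the bottom, Cthrc1 above Fap in TAC and below it in sham. In TAC replicate 1, however, Fap was the higher, at 1.41 against 1.23 FPKM. In sham, 99.7% of tested genes had a lower mean FPKM than Gsn, and 12.2% had a lower one than Cthrc1.

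Set against Pdgfra in the same library, Gsn and Cthrc1 were the only members of the other 9 whose FPKM ratio did not overlap between the groups. The share of all genes without overlap in this ratio was not computed. In CPM, 31.5% of all tested genes did not overlap. The Gsn to Pdgfra ratio was 64.3, 40.5 and 16.2 in TAC replicates 1, 2 and 3, against 78.2, 74.9 and 78.8 in sham. It was nearly constant in sham and ranged more widely among the TAC libraries than the group means, 40.3 in TAC and 77.3 in sham, lay apart. The Cthrc1 to Pdgfra ratio was 0.128, 0.132 and 0.136 in TAC, against 0.0361, 0.0516 and 0.0520 in sham. The spread of that ratio in TAC was the smallest of the 9 relative to its mean, although TAC replicate 1 was included. Dpt to Pdgfra, at 10, 7.02 and 3.42 in TAC and 8.26, 7.80 and 7.14 in sham, overlapped. A ratio within a library shows that 2 genes differed unequally and not which of them did. This comparison was made after the values were seen.

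**Figure D4:**
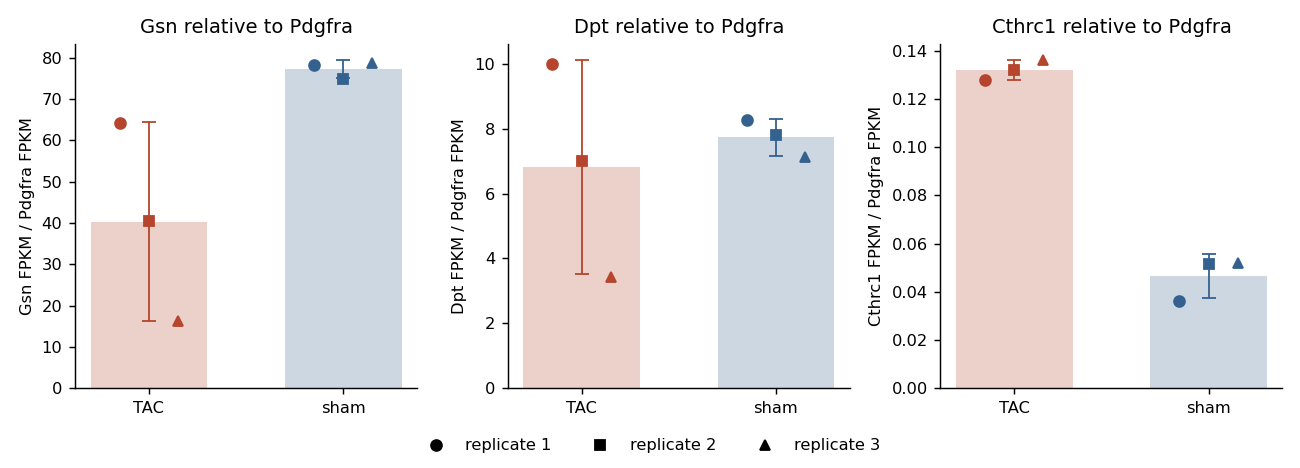
Ratio of the FPKM of Gsn, Dpt and Cthrc1 to that of Pdgfra in each library, with TAC left of sham, points for libraries, bars for means and error bars for SD (n = 3 each). Gsn to Pdgfra is 16.2 to 64.3 in TAC and 74.9 to 78.8 in sham, and Cthrc1 to Pdgfra is 0.128 to 0.136 in TAC and 0.0361 to 0.0520 in sham.

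None of 14 further genes of resting fibroblasts passed with edgeR in either direction, and 3 were at an unadjusted p under 0.05, as were 25.6% of all tested genes. DESeq2 called 1 of the 14 higher and 2 lower, against 7.26% and 4.06% of all genes. With TAC replicate 1 left out, edgeR called 1 higher and 1 lower, against 13.2% and 10% of all genes. These shares apply to the same counts of every list. Of the 14, 12 had a negative log2 fold change (median -0.20, against 0.03 over all tested genes). Dcn, the proteoglycan decorin, was at -0.19 (SE 0.23) and the surface marker Cd34 at -0.25 (SE 0.13). Among those named after their values were seen, Smoc2, a matricellular protein, had 100.1, 85.9 and 67.8 CPM in TAC replicates 1, 2 and 3 against 127, 135 and 146 CPM in sham (-0.68, SE 0.16, edgeR adjusted p = 0.0627). Col15a1, a basement membrane collagen, had 90.7, 62.8 and 134 CPM in TAC against 265, 162 and 178 CPM in sham (-1.07, SE 0.29, edgeR adjusted p = 0.0819). Ly6a, the stem cell antigen Sca-1, which endothelial cells also carry, went the other way with 213, 194 and 268 CPM in TAC and 152, 116 and 127 CPM in sham (0.77, SE 0.17, edgeR adjusted p = 0.0602). The groups did not overlap for these 3 genes. Of the 14, 1 did not overlap with higher and 4 with lower TAC values, Cd34 among the latter. Among all tested genes these shares were 18.4% and 13.1%.

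Further genes of activated fibroblasts and myofibroblasts were mixed in sign, 9 positive and 8 negative (median 0.44). None of the 17 passed with edgeR, and 9 were at an unadjusted p under 0.05, against 25.6% of all tested genes. DESeq2 called 3 higher and 2 lower, against 7.26% and 4.06% of all genes. The fibronectin gene Fn1 was at 0.44 (SE 0.37) and Col3a1 at -0.22 (SE 0.34). Named after their values were seen, Runx1, a transcription factor, had 3.46, 8.07 and 6.80 CPM in TAC replicates 1, 2 and 3 against 2.93, 2.5 and 2.86 CPM in sham (1.15, SE 0.31, edgeR adjusted p = 0.0832). Ccn2, connective tissue growth factor, had 130, 165 and 329 CPM in TAC against 57.0, 104 and 101 CPM in sham (1.25, SE 0.37, edgeR adjusted p = 0.0911). Tnc, the matrix protein tenascin C, had 10.1, 8.29 and 162 CPM in TAC against 5.18, 2.43 and 3.56 CPM in sham, so TAC replicate 3 set most of its mean. The smooth muscle actin gene Acta2 was at 262, 234 and 276 CPM in TAC and 457, 345 and 368 CPM in sham (-0.60, SE 0.15, edgeR adjusted p = 0.0733). Cilp, a cartilage matrix protein, was at 18.2, 38.8 and 19.1 CPM in TAC and 57.0, 40.0 and 46.9 CPM in sham (-0.92, SE 0.29, edgeR adjusted p = 0.105). The periostin gene Postn, also named after its values were seen, had 71.8, 116 and 107 CPM in TAC replicates 1, 2 and 3. In sham it had 75.7, 53.7 and 47.9 CPM (0.74, SE 0.23, edgeR adjusted p = 0.0983), and the groups overlapped. With TAC replicate 1 left out, 8 of these 17 were called higher and 1 lower, where 13.2% of all tested genes were called higher and 10% lower. With TAC replicate 2 left out, 1 was called lower, where 0.261% of all tested genes passed.

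Among 23 regulators of fibroblast activation none passed with edgeR, with a median of 0.06 over 15 positive and 8 negative values. At an unadjusted p under 0.05 stood 3 of them, DESeq2 called 1 higher, and edgeR without TAC replicate 1 called 2 higher and 1 lower. The abundant members were the receptor gene Tgfbr2 at 0.26 (SE 0.12) and the Hippo pathway factor Tead1 at 0.09 (SE 0.13). Tgfb2, a ligand of the TGF-β family named after its values were seen, had 14.8, 20.1 and 39.0 CPM in TAC replicates 1, 2 and 3 and 13.2, 9.86 and 10.3 CPM in sham (1.15, SE 0.34, edgeR adjusted p = 0.0912). Of 5 genes of PDGF ligands and the beta receptor, none passed with edgeR, 2 were at an unadjusted p under 0.05, and DESeq2 called 1 higher, as did edgeR without TAC replicate 1. Pdgfrb, carried by pericytes and fibroblasts, was at -0.29 (SE 0.15), and the ligand gene Pdgfb at 0.22 (SE 0.17). The ligand gene Pdgfc, named after its values were seen, had 7.82, 8.42 and 5.74 CPM in TAC replicates 1, 2 and 3 against 3.69, 4.19 and 4.34 CPM in sham (0.84, SE 0.20, edgeR adjusted p = 0.0672), while its receptor gene Pdgfra is the member with nearly equal group means.

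The relatives of Gsn and the genes around Ddah1 did not pass with edgeR on all 6 libraries either. Without TAC replicate 1, 1 gelsolin family gene was called higher, and of the genes around Ddah1 1 was called higher and 1 lower. Of 6 genes of the gelsolin family 5 were tested, with a median of -0.03, 1 at an unadjusted p under 0.05, and 1 higher by DESeq2. Svil, supervillin, was at -0.14 (SE 0.13) and Flii at -0.04 (SE 0.14). Capg, an actin-capping protein abundant in macrophages, was at 29.5, 31.6 and 61.3 CPM in TAC replicates 1, 2 and 3 against 21.7, 18.6 and 15 CPM in sham (1.15, SE 0.29, edgeR adjusted p = 0.0728), opposite in sign to Gsn. Of 9 genes of ADMA and nitric oxide metabolism 8 were tested, with a median of -0.01, 2 at an unadjusted p under 0.05, and 1 lower by DESeq2. Agxt2, a gene of ADMA breakdown in other organs, had 0 counts in all 6 libraries. Nos3, the endothelial nitric oxide synthase, was at -0.20 (SE 0.12), and Prmt1, which methylates arginine in proteins, at 0.44 (SE 0.21). Nos2, the inducible synthase, had 12.5, 9.38 and 10.9 CPM in TAC and 19.2, 16.7 and 16.5 CPM in sham (-0.67, SE 0.15, edgeR adjusted p = 0.0627). Capg and Nos2 were named after their values were seen.

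**Figure D5:**
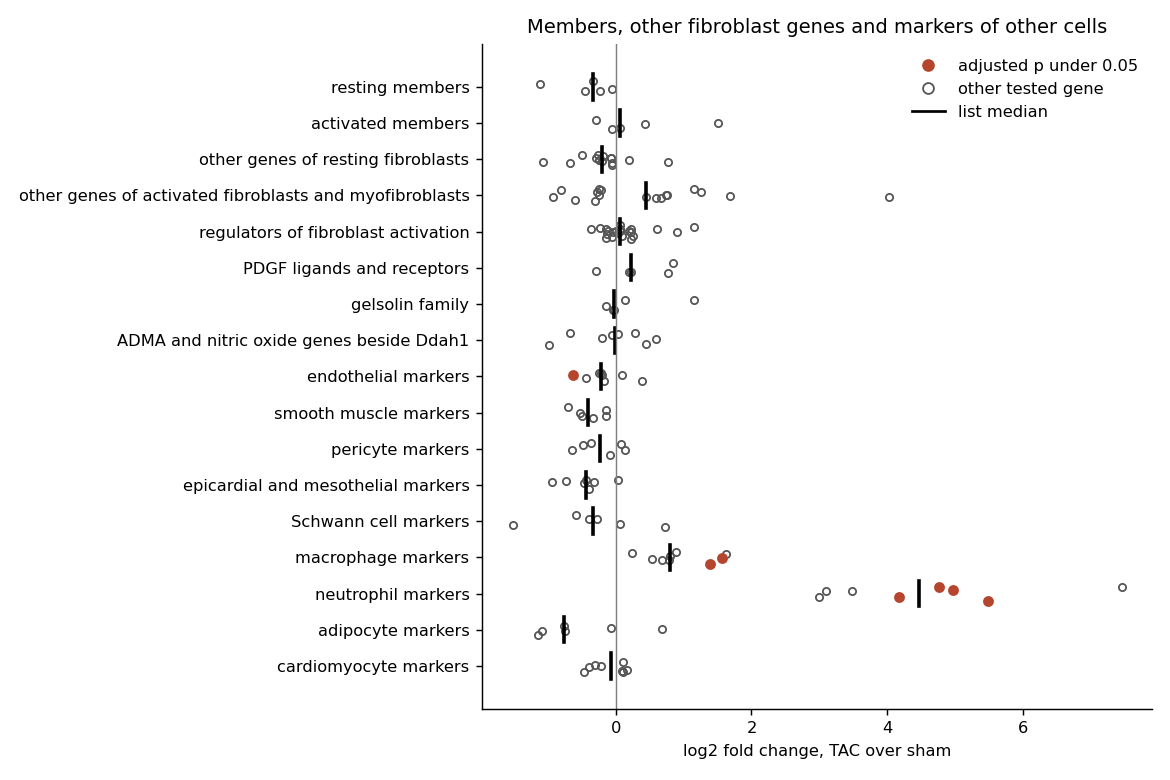
Log2 fold change of TAC over sham for the tested genes of each list, with filled points for genes at an adjusted p under 0.05 and a bar at each list's median. The resting genes have a median of -0.33 and the activated genes of 0.06, against 4.47 for neutrophil markers and 0.80 for macrophage markers. Medians are also negative for smooth muscle (-0.41), epicardial and mesothelial (-0.44), Schwann cell (-0.34), adipocyte (-0.76), pericyte (-0.22), endothelial (-0.21) and cardiomyocyte markers (-0.06).

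Some markers of other cells also differed between the groups, and their part in the results was not tested. Of 9 macrophage markers 2 passed as higher in TAC and none as lower, against 1.12% of all tested genes higher and 0.54% lower. These were Cd68, a lysosomal glycoprotein (1.56, SE 0.26, edgeR adjusted p = 0.0359), and Mrc1, the macrophage mannose receptor (1.39, SE 0.26, edgeR adjusted p = 0.0436). The 9 genes summed to 905 to 1342 CPM in TAC and 638 to 758 CPM in sham. Of 8 neutrophil markers 4 passed as higher and none as lower, and they summed to 48.4 to 229 CPM in TAC and 6.18 to 12.1 CPM in sham. Of these, Lcn2 rose by 4.18 (SE 0.48, edgeR adjusted p = 0.0122), S100a9 by 4.77 (SE 0.77, edgeR adjusted p = 0.0327), S100a8 by 4.97 (SE 0.84, edgeR adjusted p = 0.0363) and Mmp8 by 5.49 (SE 1.01, edgeR adjusted p = 0.0436). Of 8 endothelial markers the receptor gene Tie1 was lower (-0.63, SE 0.11, edgeR adjusted p = 0.0414; none higher), and the list summed to 1784 to 2011 CPM in TAC and 1999 to 2158 CPM in sham. DESeq2 called 7 macrophage and 7 neutrophil markers higher and none lower, and edgeR without TAC replicate 1 called 8 of 9 and 8 of 8 higher. With limma-voom no macrophage marker and 1 neutrophil marker, Lcn2, passed. Without TAC replicate 3 edgeR called 1 marker of each list, and without TAC replicate 2 it called no macrophage and 1 neutrophil marker. With 1 sham library left out it called none of either list, where 0.115% of all tested genes passed without sham replicate 1 or 2 and 0.086% without sham replicate 3. Of the endothelial markers DESeq2 called 1 higher and 2 lower, as did edgeR without TAC replicate 1. Tie1 passed in no other fit that left out a library, and in limma-voom it did (adjusted p = 0.0452).

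None of the smooth muscle, pericyte, epicardial, Schwann cell, adipocyte or cardiomyocyte markers passed with edgeR on all 6 libraries. In the fit without TAC replicate 1 it called 2 smooth muscle, 3 pericyte and 3 cardiomyocyte markers lower and none higher, where 10% of all tested genes were called lower. Without sham replicate 1 it called 1 epicardial marker lower. At an unadjusted p under 0.05 stood 4 smooth muscle, 2 pericyte, 1 Schwann cell and 2 cardiomyocyte markers, and DESeq2 called 3, 2, 1 and 2 markers of these lists lower. For the epicardial and adipocyte markers both counts were 0. The 6 smooth muscle markers summed to 176 to 230.3 CPM in TAC and 264 to 294 CPM in sham, and Smtn and Myh11 were at -0.49 (SE 0.12) and -0.53 (SE 0.17). The 6 pericyte markers summed to 618 to 938 CPM in TAC and 839 to 955 CPM in sham, with Rgs5 at 0.14 (SE 0.21) and Abcc9 at -0.37 (SE 0.26). The 7 epicardial and mesothelial markers summed to 74.0 to 117 CPM in TAC and 54.1 to 232 CPM in sham, with Upk3b at -0.94 (SE 0.45) and Msln at -0.74 (SE 0.57). The lowest sum was that of sham replicate 1, the library in which 4 activated genes had their highest sham value. The 6 Schwann cell markers summed to 23.5 to 29.1 CPM in TAC and 21.4 to 32.5 CPM in sham, with Cnp at 0.07 (SE 0.15). Adipocyte genes Cfd and Cidec were at -0.75 (SE 0.93) and -1.08 (SE 0.82), and the cardiomyocyte genes Myh6 and Actc1 at -0.47 (SE 0.17) and 0.10 (SE 0.15). No marker of these lists was at 0 in all libraries.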

How the data were processed

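Hearts were sampled after TAC or sham surgery, and the titles gave groups and replicate numbers. Poly(A) RNA was made into libraries with a NEBNext Ultra kit, per the labels' protocols. The deposited table gives an estimated count and an FPKM value for each gene and library, per the file headers. The submitters' processing notes name Bowtie2 2.2.8, HISAT2, StringTie 1.3.1, DESeq2 and GRCm38. No source used here says which tool made which column. Counts of the 10 genes were whole in every library.

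Symbols and positions came from GENCODE on GRCm38, which matched 22255 of 22298 identifiers, and start sequences from RefSeq (GRCm38.p6), where 6 of the 10 genes matched. Estimated counts were rounded. They were fitted with the quasi-likelihood method of edgeR 4.0.16 (R 4.3.3) after TMM scaling and filterByExpr at a minimum count of 10, two-sided, with no covariate. Benjamini-Hochberg adjustment was over 13708 genes, with a threshold of 0.05. The SE is the log2 fold change divided by the square root of F, and the 95% interval uses it with the moderated degrees of freedom, so both are approximate. Scripts were tested on simulated data.

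Alternatives were RLE and upper-quartile factors, DESeq2 1.42.0, limma-voom (limma 3.58.1), no filter or a minimum count of 100, limma-trend on log2 of FPKM plus 1 or plus 0.1, a block for the replicate number, and leaving out each library. The 10 genes and all gene lists were chosen with earlier results of these data known. From each list, the 4 passing genes of smallest adjusted p are named or, where none passed, the 2 most abundant. Genes said to be named after their values were seen fall outside that rule, and a gene that it names is not reported here.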

Additional observations from a re-analysis of the deposited data

How the results depend on the processing

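The direction of all 10 genes was the same under the 9 alternatives that kept all 6 libraries, except that Fap and Cthrc1 were not tested at a minimum count of 100. There Gsn ranged from -1.21 to -1.10 and Cthrc1 from 0.75 to 1.5, the low end with FPKM plus 1. DESeq2 called 1063 genes higher and 594 lower, and 1 of the 10 genes higher (Cthrc1) and 1 lower (Gsn). The count of higher genes was 153 in the reported test, 96 with limma-voom, 59 with FPKM plus 1 and 64 with FPKM plus 0.1. With each library left out in turn, it ranged from 4 to 1837, and that of lower genes, 74 in the reported test, from 8 to 1392. Higher and lower calls among the 10 genes each ranged from 0 to 1 in these fits. Signs turned in some: Pdgfra ranged from -0.29 to 0.10, Meox1 from -0.29 to 0.23, Fap from -0.13 to 0.16 and Pi16 from -0.43 to 0.04. Dpt kept its sign at -0.52 to -0.15, Cd248 at -0.45 to -0.09 and Ddah1 at 0.26 to 0.57. The cause was not tested. With the replicate number as a block, 48 genes were higher and 26 lower, and none of the 10. Same-numbered libraries did not deviate together (correlations of 0.01, -0.11 and -0.02). With 3 libraries per group these values cannot settle whether the numbers pair the samples. Activated minus resting, 0.78 log2 units between the groups, ranged from 0.50 to 0.97 with 1 library left out. The other lists' counts by tool and with a library left out were added after the data were seen. Fap and Cthrc1 are limited by counts of at most 90 and 61 per library.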
